A study of Mus musculus with 9 samples.

Results

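Heparan sulfate (HS) is a sulfated sugar chain that cells carry only as an attachment to a small set of core proteins. The genes described here are the 8 that encode the 4 syndecans (Sdc1, Sdc2, Sdc3 and Sdc4), the secreted core proteins agrin (Agrn), perlecan (Hspg2) and collagen XVIII (Col18a1), and CD44 (Cd44). They were chosen by name, as the rows of the count table whose gene ID maps to one of these symbols, and all 8 were found among 35275 gene IDs. The libraries came from mouse bone marrow megakaryocyte-erythroid progenitors (MEPs), the Lin-, c-kit+, CD34-, Fc gamma receptor II/III low cells from which red cells and megakaryocytes arise, of young adult wild-type C57Bl/6 mice. No gene deletion or drug was involved. MEPs were stained with HS3A8, a single-chain antibody fragment (scFv) against HS, and sorted into a fraction with high binding (HS3A8-high) and a fraction with low binding (HS3A8-low). The study cut the MEPs at the middle of their HS3A8 binding, so that both fractions together make up the MEPs. The third group, the MPB49 control, was stained with an scFv that has no known HS epitope and was mock-sorted, so that it represents total MEPs. Each of the 3 groups holds 3 bulk RNA libraries made from 25000 cells each, which the study describes as coming from individual mice.

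A core protein sets where an HS chain sits. Syndecans span the plasma membrane and are shed by proteases, agrin, perlecan and collagen XVIII are secreted into basement membranes and other matrix, and CD44 is the main receptor for hyaluronan, whose HS-bearing form depends on alternative splicing. The chain is started on a serine that is followed by glycine, often in tandem and next to acidic residues. HS on progenitors binds growth factors and matrix, and in marrow CD44 and syndecans are best known for adhesion.

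The coding sequence that holds such tandem serine-glycine codons is shown for the 4 syndecans and for CD44, because it shows what a gene-level count can and cannot see. Each is read 5′ to 3′ on the coding strand from GENCODE M21 transcripts (GRCm38, the assembly that mm10 names), with the tandem serine and glycine codons in capitals and 15 bases on either side.
Sdc1: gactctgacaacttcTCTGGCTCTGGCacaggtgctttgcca
Sdc2: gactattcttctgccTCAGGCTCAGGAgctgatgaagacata
Sdc3: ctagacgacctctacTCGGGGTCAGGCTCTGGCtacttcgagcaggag
Sdc4: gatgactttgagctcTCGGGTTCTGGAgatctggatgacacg
Cd44: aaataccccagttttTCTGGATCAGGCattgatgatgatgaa
In the syndecans the stretch lies where exon 2 meets the next exon: chr12:8789458-8789488 and chr12:8790385-8790395 on the plus strand for Sdc1, chr15:33017189-33017213 and chr15:33023649-33023665 (plus) for Sdc2, chr4:130816929-130816962 and chr4:130818582-130818595 (plus) for Sdc3, and chr2:164431187-164431220 and chr2:164429719-164429726 (minus) for Sdc4. It begins at codon 45 of Sdc1, 55 of Sdc2, 78 of Sdc3 and 62 of Sdc4, and holds 3 pairs in Sdc3 against 2 in the others. Every annotated transcript of Sdc1, Sdc2 and Sdc4 with a coding sequence holds it, and so does the only Sdc3 transcript with a complete one.

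In Cd44 the tandem codons lie at chr2:102845304-102845345 on the minus strand, inside a single exon of 126 bases (chr2:102845285-102845410), which is exon 8 of 19 in the longest transcript. Of 8 annotated Cd44 transcripts with a coding sequence, 1 holds this stretch. The count of a gene adds up reads of all its transcripts, so the Cd44 counts given here do not separate the form that can carry HS from the others. Collagen XVIII has no such tandem run in any of its 5 annotated coding transcripts (single serine-glycine codon pairs number 17 in the longest), so runs of this kind do not mark every HS carrier.

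Total counts ran from 11781637 to 15850037 per library. Levels are given as CPM (counts scaled to a common library total) after scaling by the trimmed mean of M values (TMM), and 3 counts, the limit used here for a gene at 0, correspond to 0.176 to 0.270 CPM. Such limits cover counting error only. The intervals of log2 fold changes given below come from the edgeR fits and include the spread between libraries. Replicate 3 of both HS3A8 fractions stood apart in granulocyte and monocyte markers, which summed to 1575 CPM in HS3A8-high and 3702 CPM in HS3A8-low, against 8.51 to 257 CPM in the other 7 libraries. Erythroid markers summed to 9081 to 9736 CPM in HS3A8-high and 7025 to 7919 CPM in HS3A8-low, and Kit, a marker of the gate, was at 387 to 788 CPM in all 9. Cd34, whose protein is absent from the gate, was at 0.836 to 11 CPM in HS3A8-high, 28.2 to 74.5 CPM in HS3A8-low and 14.7 to 42.3 CPM in the control. Of the 6 gate genes, 0 were called between the fractions in an unpaired edgeR fit (3 at an unadjusted p under 0.05) and 4, Cd34 among them (adjusted p = 0.0178), were called lower in HS3A8-high with the replicate block. Of all genes tested, 3.82% were called in the unpaired fit (19.8% at an unadjusted p under 0.05) and 8.27% were called lower with the block. The libraries are of mixed cells, so fewer cells of a type and less RNA per cell cannot be told apart.

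Levels of different genes were compared only per length, as CPM per kilobase of annotated exon. On this scale CD44 was far above all other members: its level was 23.7 on average over the 9 libraries, with a range of 19.6 to 30.5, and it made up 76.8 to 87.3% of the summed level of the 8 genes in every library. Agrin followed at 1.60 (0.760 to 3.07), then syndecan-1 at 1.46 (0.956 to 2.11), syndecan-2 at 0.876 (0.458 to 1.42), syndecan-3 at 0.251 (0.0639 to 0.631), syndecan-4 at 0.197 (0.0251 to 0.460), collagen XVIII at 0.172 (0.00944 to 0.636) and perlecan at 0.0477 (0 to 0.2495). CD44 did not overlap with any other gene, whereas each later neighbor in this order overlapped with the next over the 9 libraries. Scaling by the longest transcript in place of the summed exons left Cd44 first at 28.6, but put Sdc1 (1.77) above Agrn (1.72) and Col18a1 (0.216) above Sdc4 (0.204). The per-length level assumes even coverage of the annotated exons, and the coverage of this low-input protocol is not given in the sources used here.

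**Figure D1:**
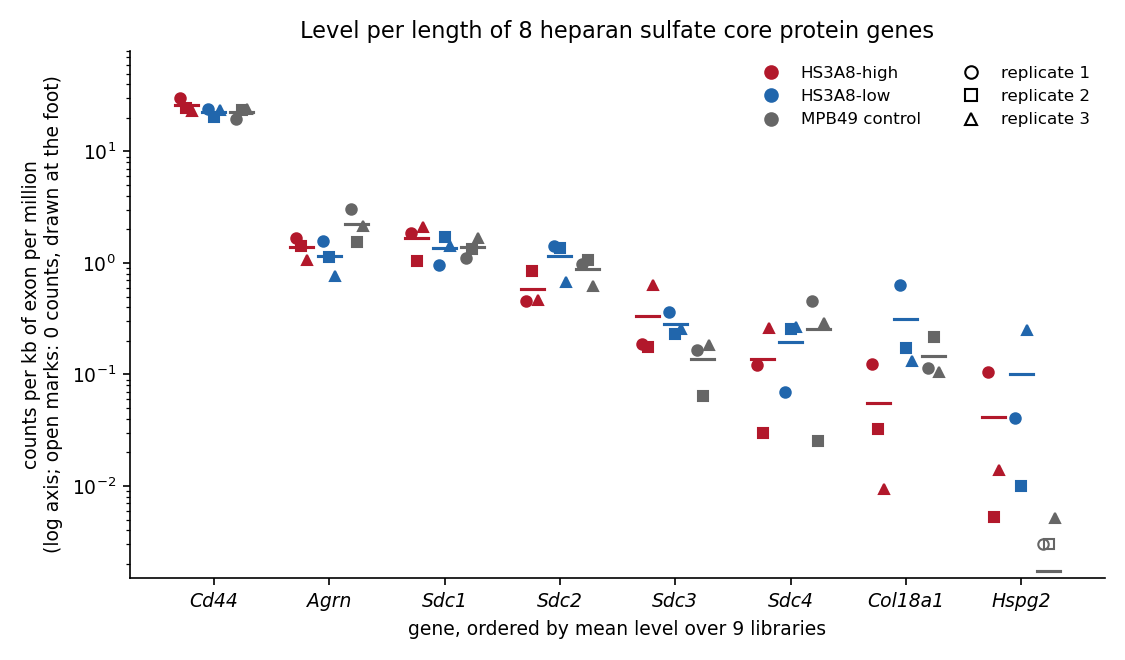
Level per length (CPM per kb of exon, log axis) of the 8 genes in each of the 9 libraries, colored by group, with bars at the group means. Cd44 lies between 19.6 and 30.5 in all libraries, above every other gene, and the 2 control libraries without an Hspg2 count are drawn as open marks.

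Whether the fractions differ in the transcripts of their HS core proteins was asked with edgeR's quasi-likelihood test over all genes that passed a count filter, with p-values adjusted by the Benjamini-Hochberg method over all genes tested, and a gene was called at an adjusted p under 0.05. Of the 8 core protein genes, 6 passed the filter in each of the 3 comparisons, and Sdc4 and Hspg2 did not. Between HS3A8-high and HS3A8-low, 0 of the 6 were called, against 3.82% of 11791 genes tested. At an unadjusted p under 0.05, 1 of the 6 (Col18a1) stood below the threshold, against 19.8% of all genes. DESeq2, which called 8.87% of genes, and limma-voom, which called 12.6%, also called 0 members, and so did edgeR without replicate 3 of both fractions (6.29% of genes). Regardless of sign, the log2 fold changes had a median of 0.273 for the 6 genes and 0.215 for all genes tested.

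Libraries of the 2 HS3A8 fractions with the same replicate number deviated together from their group means, so the comparison was also fitted with the replicate number as a block. That fit called 11.6% of genes (3.32% higher and 8.27% lower in HS3A8-high), and among the core proteins it called 1 of 6, Col18a1, which was lower in HS3A8-high. The difference between these fits is shown gene by gene in the plot of log2 fold changes.

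**Figure D2:**
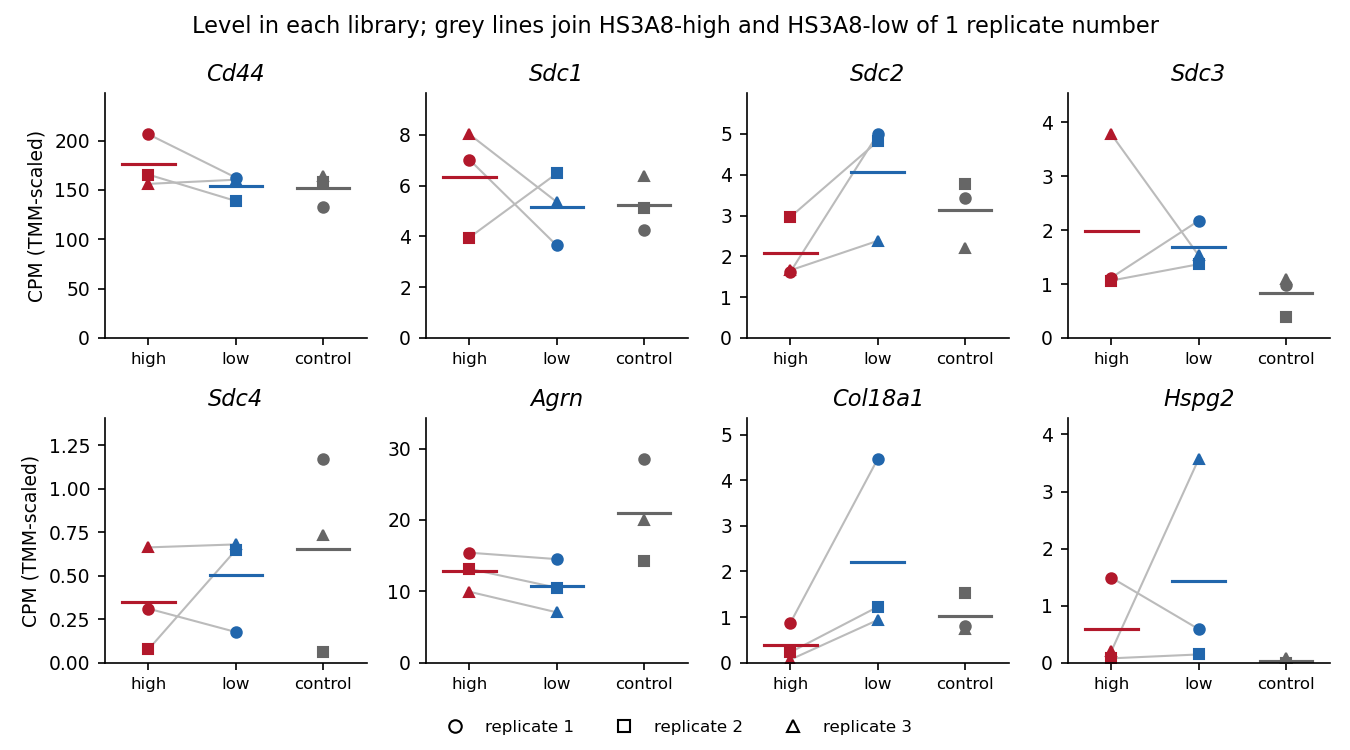
CPM (TMM-scaled, linear axis from 0) of each of the 8 genes in every library, with bars at the group means and grey lines joining the libraries of both fractions that carry 1 replicate number. All 3 lines of Col18a1 and of Sdc2 run upward from HS3A8-high to HS3A8-low, all 3 lines of Agrn run downward, and the other genes have lines in both directions.

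Collagen XVIII, a basement membrane collagen with HS chains whose C-terminal fragment is endostatin, showed the largest difference of the 6 genes between the fractions. It is encoded on chromosome 10 (chr10:77052178-77166548, minus strand). Col18a1 was at 0.870, 0.228 and 0.0663 CPM in HS3A8-high replicates 1 to 3, from 14, 3 and 1 counts. In HS3A8-low it was at 4.47, 1.22 and 0.935 CPM, from 76, 17 and 11 counts. The fractions did not overlap, a property of 27.6% of all genes tested (15.1% with HS3A8-high lower), and HS3A8-low replicate 1 stood above the other 8 libraries. The log2 fold change was -2.48 (SE 0.979, 95% interval -4.80 to -0.16), with an unadjusted p of 0.0391 and an adjusted p of 0.222 in edgeR's test.

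With the replicate block the log2 fold change of Col18a1 was -2.62 (SE 0.557, 95% interval -3.98 to -1.26) at an adjusted p of 0.0373, and within the 3 pairs the differences in log2 CPM were -2.19, -1.89 and -2.37. The blocked call was lost without replicate 1 of both fractions (-2.88, adjusted p = 0.251, with 2.23% of genes called) and without replicate 2 of both (-2.73, adjusted p = 0.106, with 5.27% called), and it stood without replicate 3 of both (-2.36, adjusted p = 0.0111, with 30% of genes called, made up of 14% higher and 16% lower). In the unpaired fit, leaving out HS3A8-low replicate 1 gave -1.41 and leaving out HS3A8-high replicate 1 gave -3.90, neither of them called. The control libraries held 9, 24 and 10 counts, or 0.810, 1.53 and 0.734 CPM, and overlapped with both fractions. The log2 fold change against the control was -1.38 (SE 0.854, adjusted p = 0.733) for HS3A8-high and 1.08 (SE 0.729, adjusted p = 0.840) for HS3A8-low in edgeR's test, the latter falling to 0.03 without HS3A8-low replicate 1.

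Markers of several other cell types moved in the same direction as Col18a1, and their part in its difference was not tested. Their calls below are from the unpaired edgeR fit, which called 3.21% of all genes tested lower in HS3A8-high. The 8 endothelial genes summed to 7.07 to 10.01 CPM in HS3A8-high and 52.8 to 68.3 CPM in HS3A8-low, with 4 of the 5 tested called lower in HS3A8-high. Cdh5, the defining endothelial cadherin, had no count in any library, while Pecam1 and Tek, which blood progenitors also express, were at 5.09 to 8.35 and 1.13 to 2.11 CPM in HS3A8-high and at 21.5 to 31.3 and 9.94 to 17.3 CPM in HS3A8-low. The 8 stromal genes summed to 1.59 to 7.46 CPM in HS3A8-high and 10.2 to 36.0 CPM in HS3A8-low, with 1 of 2 tested called lower. Most of that sum was Pdgfrb, at 0.663 to 2.51 CPM in HS3A8-high and 8.07 to 24.8 CPM in HS3A8-low, and Col1a2, at 0.928 to 2.55 and 2.04 to 10.8 CPM, while Col1a1 was at no more than 0.311 CPM anywhere. The 11 megakaryocyte genes summed to 32.5 to 48.9 CPM in HS3A8-high and 189.5 to 380 CPM in HS3A8-low, with 4 of 8 tested called lower and none called higher. The 8 T and NK cell genes summed to 4.64 to 33.3 CPM in HS3A8-high and 181 to 239 CPM in HS3A8-low, with 3 of 6 tested called lower, and Nkg7 was the most abundant of them. In HS3A8-low Tcf7 was at 31.0 to 81.6 CPM and Trbc1 at 22.0 to 25.1 CPM. The T cell genes Cd3e, Cd3g, Cd4 and Cd8a were at no more than 1.726, 1.821, 0.09004 and 0.8104 CPM in any library. The 9 stem and early progenitor genes, Cd34 among them, summed to 16.95 to 32.7 and 176 to 211 CPM, with 3 of 8 tested called lower.

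**Figure D3:**
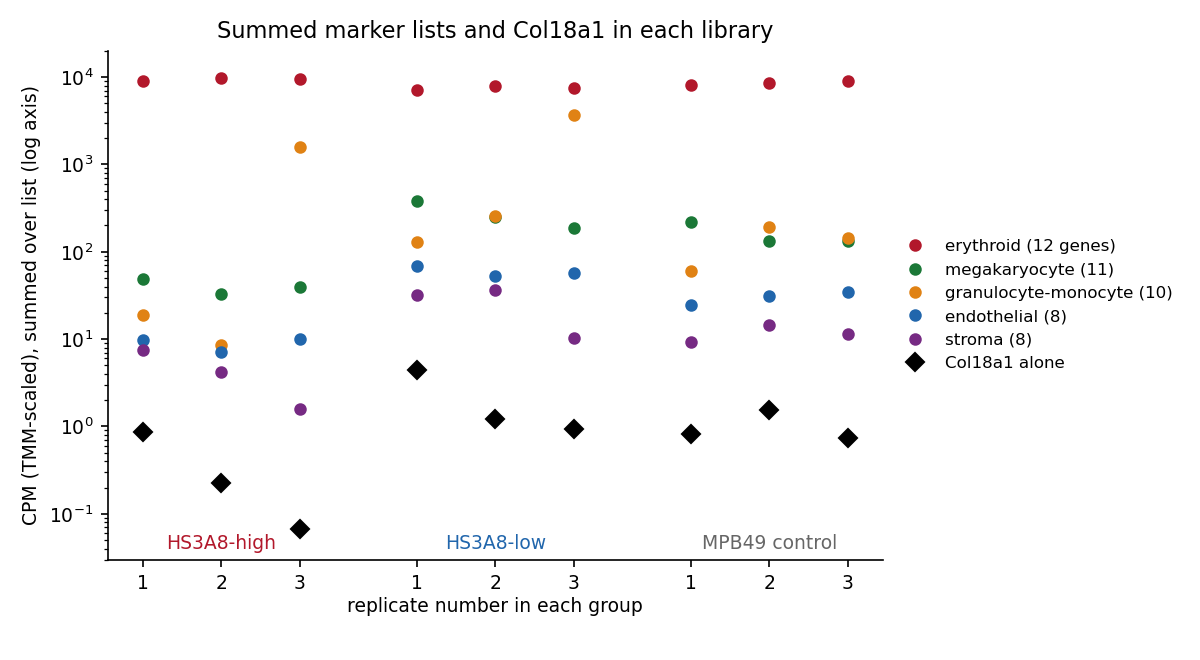
Summed CPM (TMM-scaled, log axis) of 5 marker lists and the CPM of Col18a1 alone in each of the 9 libraries. The megakaryocyte, endothelial and stromal sums and Col18a1 are all lower in the 3 HS3A8-high libraries than in the 3 HS3A8-low libraries, and the granulocyte-monocyte sum is far higher in replicate 3 of both fractions (1575 and 3702) than in the other 7 libraries.

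Among the syndecans none was called in any comparison. Syndecan-2, a syndecan of mesenchymal and endothelial cells (chr15:32920723-33034935, plus strand), came closest. Sdc2 was at 1.62, 2.96 and 1.66 CPM in HS3A8-high and at 4.99, 4.82 and 2.38 CPM in HS3A8-low, from 25 to 85 counts per library. It was lower in HS3A8-high in all 3 pairs, by -1.55, -0.68 and -0.49 in log2 CPM, although the groups overlapped because HS3A8-low replicate 3 lay below HS3A8-high replicate 2. The log2 fold change was -0.99 (SE 0.432, 95% interval -2.01 to 0.04), with an adjusted p of 0.270 in edgeR's test and of 0.165 with the replicate block. The control libraries lay between, at 3.42, 3.77 and 2.20 CPM, and the log2 fold changes against them were -0.60 for HS3A8-high (adjusted p = 0.733) and 0.34 for HS3A8-low (adjusted p = 0.893) in the same test.

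Syndecan-1 (chr12:8771323-8793715, plus strand), known as the plasma cell antigen CD138 and also made by immature B cells and epithelia, was the most abundant syndecan per length. The HS3A8-high libraries held Sdc1 at 7.02, 3.95 and 8.02 CPM, against 3.64, 6.47 and 5.35 CPM in HS3A8-low and 4.23, 5.11 and 6.39 CPM in the control. All groups overlapped, and the pairs went in different directions. The log2 fold change between the fractions was 0.30 (95% interval -0.56 to 1.15, adjusted p = 0.710 in edgeR's test), and its estimate was -1e-04 in limma-voom with quality weights. The defining plasma cell genes were near or at 0, with Jchain at no more than 0.425 CPM and Mzb1 at no more than 1.70 CPM in any library. Of the 7 plasma cell genes listed, 1 (Xbp1, also used by other secretory cells) had a mean of at least 1 CPM, and it ran from 69.6 to 167 CPM.

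Syndecan-3, the long syndecan of nerve and muscle (chr4:130792537-130826319, plus strand), had a direction that turned on 1 library. Sdc3 was at 1.12, 1.06 and 3.78 CPM in HS3A8-high, at 2.17, 1.37 and 1.53 CPM in HS3A8-low, and at 0.991, 0.383 and 1.10 CPM in the control. HS3A8-high replicate 3 was the highest of the 9, and it is also one of the libraries with the granulocyte and monocyte markers, whose part in the value was not tested. The log2 fold change between the fractions was 0.21 (SE 0.587, adjusted p = 0.878 in edgeR's test) with it and -0.63 (adjusted p = 0.572) without it. Against the control, HS3A8-low did not overlap, which held for 12.1% of all genes tested (8.65% with HS3A8-low higher), but its log2 fold change of 1.01 (SE 0.572, adjusted p = 0.840 in edgeR's test) was not called. HS3A8-high was 1.27 above the control on the log2 scale (SE 0.709, adjusted p = 0.733 in the same test), and 0.41 without replicate 3. Of the annotated Sdc3 exon bases 7.73% also belong to genes on the other strand, and whether the counting used strand is not given in the sources used here.

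Syndecan-4, the widely expressed focal adhesion syndecan (chr2:164424247-164443887, minus strand), was near the limit of detection. Sdc4 had 5, 1 and 10 counts in the HS3A8-high libraries, 3, 9 and 8 in those of HS3A8-low, and 13, 1 and 10 in the control. All groups overlapped and spanned 0.0638 to 1.17 CPM. It did not pass the count filter. Without that filter edgeR gave log2 fold changes of -0.46 between the fractions (SE 0.953, adjusted p = 0.837), -0.83 for HS3A8-high against the control (SE 1.14, adjusted p = 0.776) and -0.40 for HS3A8-low against it (SE 1.07, adjusted p = 0.944). With errors of this size a difference between groups could go undetected at this depth, and the smallest detectable difference was not computed.

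CD44 (chr2:102811141-102901665, minus strand) was measured most precisely. Cd44 was at 206, 165.5 and 156 CPM in HS3A8-high, at 162.5, 139 and 160.3 CPM in HS3A8-low, and at 132.5, 158 and 164 CPM in the control, from 1472 to 3322 counts per library. The groups overlapped in every comparison. Its log2 fold change was 0.19 between the fractions (95% interval -0.14 to 0.52, adjusted p = 0.522), 0.21 for HS3A8-high against the control (-0.18 to 0.60, adjusted p = 0.733) and -0.01 for HS3A8-low against the control (-0.37 to 0.35, adjusted p = 0.987) in edgeR's test. Without replicate 3 of both fractions and with the replicate block, Cd44 was called higher in HS3A8-high (0.31, SE 0.061, adjusted p = 0.00134), in a fit that called 30% of 11898 genes. In replicate 3 the pair went the other way, by -0.04 in log2 CPM, against 0.34 and 0.25 in replicates 1 and 2.

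**Figure D4:**
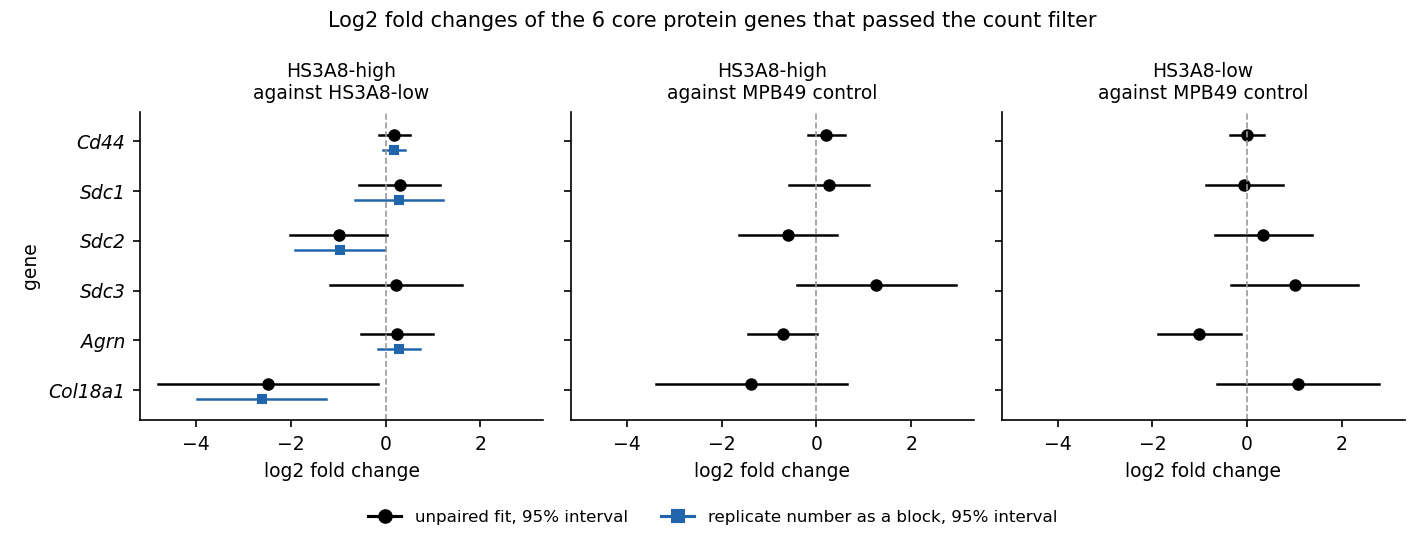
Log2 fold changes of the 6 tested genes with 95% intervals in the 3 comparisons, from the unpaired fit (black circles) and, for the 2 HS3A8 fractions, with the replicate number as a block (blue squares, not drawn for Sdc3, whose blocked estimate is 0). Most intervals cross 0, and the exceptions are Col18a1 between the fractions in both fits, Sdc2 between the fractions in the blocked fit and Agrn in HS3A8-low against the control.

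Agrin, best known for gathering acetylcholine receptors at the nerve-muscle synapse and also made in marrow (chr4:156165290-156197488, minus strand), had its highest mean in the control. That mean was 20.96 CPM, above both HS3A8-high (12.83 CPM) and HS3A8-low (10.69 CPM), although the control represents total MEPs. Agrn was at 15.4, 13.2 and 9.94 CPM in HS3A8-high and at 14.5, 10.5 and 7.05 CPM in HS3A8-low, against 28.5, 14.3 and 20.0 CPM in the control. In each pair HS3A8-high exceeded HS3A8-low, by 0.09, 0.32 and 0.49 in log2 CPM, but the fractions overlapped broadly. The log2 fold change between them was 0.25 (SE 0.321, 95% interval -0.51 to 1.01, adjusted p = 0.724), and 0.29 (adjusted p = 0.354) with the replicate block.

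Both comparisons of agrin with the control share the control libraries, so they are given side by side. HS3A8-high was -0.71 from the control on the log2 scale (SE 0.306, unadjusted p = 0.0524, adjusted p = 0.733) and HS3A8-low was -1.01 from it (SE 0.372, unadjusted p = 0.0291, adjusted p = 0.798) in edgeR's test. Each fraction had a library that overlapped with control replicate 2. Without control replicate 1, which held the highest Agrn level, the differences were -0.41 and -0.69. The replicate numbers of the control did not pair with those of the fractions, and a fit with them as a block, run as an alternative, gave -0.68 (unadjusted p = 0.0589, adjusted p = 0.842) and -1.01 (unadjusted p = 0.0223, adjusted p = 0.994) in edgeR.

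In these comparisons 0 of the 6 tested members were called, against 0.0174% of 11486 genes for HS3A8-high and 0% of 11878 genes for HS3A8-low. At an unadjusted p under 0.05 there were 0 and 1 (Agrn) of the 6 members, against 4.89% and 5.67% of all genes, and 0 members were called in either by DESeq2 (1.06% and 0.672% of genes) or limma-voom (0.871% and 2.42%). The median absolute log2 fold change of the members was 0.656 and 0.673, beside 0.245 and 0.222 for all genes tested. Members with few counts were imprecise: the SEs of Sdc3 and Col18a1 were 0.709 and 0.854 for HS3A8-high and 0.572 and 0.729 for HS3A8-low. Whether low counts raised the medians of the members was not tested. A total made up of both fractions would lie between them, apart from the spread between libraries. The control means of Agrn and Sdc4 instead lay above both fractions, and those of Sdc3, Hspg2 and Cd44 below both. The control means of Sdc1, Sdc2 and Col18a1 lay between. Why some lay outside was not tested, so differences from the control cannot be read as differences between subsets of MEPs.

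Perlecan, the large HS proteoglycan of basement membranes and cartilage (chr4:137468769-137570630, plus strand), was detected unevenly. Hspg2 had 24, 1 and 3 counts in HS3A8-high, 10, 2 and 42 in those of HS3A8-low, and 0, 0 and 1 in the control, that is 1.49, 0.0760 and 0.199 CPM, 0.588, 0.144 and 3.57 CPM, and at most 0.0734 CPM. The counts of the fractions thus rested on HS3A8-high replicate 1 and HS3A8-low replicates 1 and 3, the last being one of the libraries with granulocyte and monocyte markers, whose part was not tested. The fractions overlapped, and HS3A8-high replicate 2 held 1 count, as many as control replicate 3. Hspg2 did not pass the count filter. Without that filter edgeR gave an unadjusted p of 0.0301 and an adjusted p of 0.707 for HS3A8-high against the control, and of 0.00659 and 0.643 for HS3A8-low. DESeq2 gave 0.0274 and 0.632 for the first and 0.00147 and 0.126 for the second, so that Hspg2 was called in neither. Between the fractions the unfiltered log2 fold change was -1.20 (SE 1.24, adjusted p = 0.639 in edgeR). No ratio to the control is given because its 3 libraries held a single count.

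Likeness between genes was described over the 9 libraries. For each member the genes of highest r were picked from 9346 or 9347 genes, so high values come in part from the search itself. Among pairs of members that passed 1 CPM on average, Pearson's r of log2 CPM was highest for Sdc2 with Col18a1 (0.67) and lowest for Sdc1 with Sdc2 (-0.65), a description over 9 libraries that share their groups and, in part, their replicate numbers. The 3 genes with the most similar pattern, among those of at least 5 CPM on average, were C87436, Nptn and Mmaa for Sdc1 (r of 0.88, 0.84 and 0.82), Cmas, Zdhhc1 and 2610035D17Rik for Sdc2 (0.97, 0.96 and 0.95), and Rxra, Cdk5rap3 and Faim for Sdc3 (0.95, 0.86 and 0.86). For Agrn they were Zfp661, Dnajc1 and Rabl2 (0.94, 0.93 and 0.92), for Cd44 Rev1, Fbxo10 and Pcx (0.98, 0.95 and 0.95), and for Col18a1 Plcg1, Smad7 and Rab27b (0.99, 0.95 and 0.94). The r of Col18a1 with Plcg1 was still 0.99 without HS3A8-high replicate 3, where Col18a1 was farthest from its median, whereas that of Sdc3 with Faim dropped from 0.86 to 0.71 without the same library. These genes were picked on the same libraries, so the values without 1 library are no separate support. The median r of Col18a1 over the genes searched was -0.0577.

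The other genes of the HS pathway were described from 7 lists. Among 9 genes listed as other HS carriers, 6 were tested between the fractions, with 1 called higher in HS3A8-high and 1 lower, against 0.611% and 3.21% of all genes tested. Which sugar chains their proteins, serglycin among them, carry in these cells was not measured. Gpc4, a glypican anchored to the membrane by a lipid tail, was at 38.3 to 42.1 CPM in HS3A8-high but at 1.87 to 5.25 CPM in HS3A8-low (log2 fold change 3.46, SE 0.349, adjusted p = 0.00868 in edgeR's test). Its adjusted p was 0.0685 without HS3A8-low replicate 2, the only library whose removal ended that call. Srgn, the granule proteoglycan serglycin, fell by 0.80 on the log2 scale in HS3A8-high (SE 0.116, adjusted p = 0.0253 in edgeR's test), from 314 to 411 CPM in HS3A8-low down to 188 to 223 CPM. Without HS3A8-high replicate 1, HS3A8-high replicate 2 or HS3A8-low replicate 2 its adjusted p was 0.0999, 0.106 and 0.124, and with all 9 libraries in 1 fit it was 0.211. The 6 tested carriers had a median log2 fold change of -1.117, beside -0.03 for all genes. The lowest was Nrp1, neuropilin-1, a semaphorin and VEGF co-receptor, at -3.31 (SE 1.25, adjusted p = 0.206), which was called with the replicate block (-3.77, adjusted p = 0.0229 in edgeR).

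None of 10 tested genes of the linkage and chain polymerization list was called, and their median log2 fold change was 0.21, with 8 of 10 above 0. Likewise 0 of 6 tested HS-modifying enzymes were called in the unpaired fit (median 0.14). With the replicate block Hs6st1, a 6-O-sulfotransferase, was called higher in HS3A8-high (0.32, adjusted p = 0.0449) and Ndst1, an N-deacetylase/N-sulfotransferase, lower (-1.11, adjusted p = 0.0240). That fit called 3.32% of all genes tested higher and 8.27% lower. The study singled out a set of genes with Agrn among them from single-cell data of other libraries. Its criterion was enrichment in MEPs over other progenitors and in erythroid cells, and it also showed microarray and public single-cell data. The comparison here is a different one, between fractions within MEPs. Beside Agrn and Gpc4, the members of that set were at log2 fold changes of -0.25 for Tgfbr3 (adjusted p = 0.710), 0.39 for Ext1 (0.446), 0.41 for Extl3 (0.458), 0.09 for Ndst2 (0.619) and 0.30 for Hs6st1 (0.670) in the unpaired edgeR fit.

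The lists for HS removal and shedding, for core protein partners and for hyaluronan gave 3 further calls. Of all genes tested, 0.611% were called higher in HS3A8-high and 3.21% lower. Of 6 tested genes for HS removal and shedding, 1 was called, Timp3, a matrix-bound inhibitor of the sheddases that cut syndecans, which fell by 4.08 on the log2 scale in HS3A8-high (SE 0.685, adjusted p = 0.0312 in edgeR's test), from 1.44 to 5.11 CPM in HS3A8-low down to 0.124 to 0.304 CPM. The sheddases Adam10 and Adam17 themselves had log2 fold changes of 0.01 (adjusted p = 0.984) and 0.10 (adjusted p = 0.705). Of 8 tested cytoplasmic and surface partners, 1 was called, Prkca, the protein kinase C alpha that the syndecan-4 tail activates, which fell by 2.14 (SE 0.340, adjusted p = 0.0279 in edgeR's test). Of 3 tested hyaluronan genes, 1 was called, the hyaluronan-mediated motility receptor Hmmr, which was higher in HS3A8-high by 0.49 (SE 0.0907, adjusted p = 0.0363 in edgeR's test), while the hyaluronan synthases Has1 and Has2 had no count in any library.

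Leaving out any 1 library ended the calls of Timp3 and Hmmr, with adjusted p-values of 0.0573 to 0.130 and 0.0567 to 0.148 (0.0619 for Hmmr with all 9 libraries in 1 fit), and leaving out any 1 other than HS3A8-low replicate 3 ended that of Prkca, with adjusted p-values of 0.0439 to 0.139 over the 6 fits. The basement membrane list was mostly silent, with 3 of 12 genes tested and 0 called. Of its collagen IV chains, partners of perlecan and collagen XVIII in basement membranes, Col4a2 was at -2.01 (SE 0.436, adjusted p = 0.0565, and 0.0373 with the replicate block) and Col4a1 at -2.67 (SE 0.921, adjusted p = 0.169) between the fractions in edgeR's test. Against the control no gene of the 7 lists was called in either fraction.

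**Figure D5:**
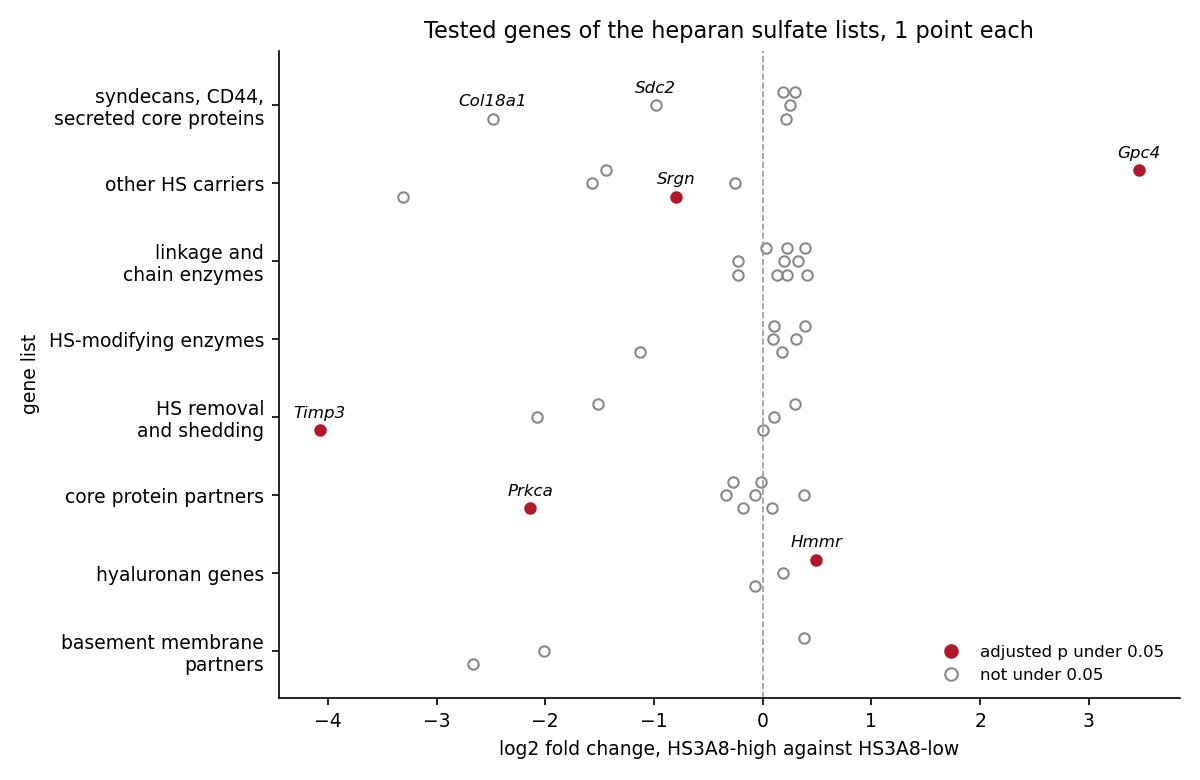
Log2 fold changes between HS3A8-high and HS3A8-low of the tested genes of the core protein list and the 7 HS lists, 1 point per gene and filled where the adjusted p in the unpaired edgeR fit is under 0.05. The 5 filled points are Gpc4 and Hmmr on the higher side and Srgn, Timp3 and Prkca on the lower side, and none of the 6 core protein genes is filled.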

How the data were processed

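The authors mapped reads to mm10 with STAR and deposited raw counts per Ensembl gene for the 9 libraries. The submitters' processing notes name STAR 2.5 and HTSeq 0.6.1. Counts were used as deposited, and 34490 of 35275 IDs matched a symbol. The members and all gene lists were chosen with earlier results of these data known. Each group was compared with each other group with edgeR 4.0.16 (glmQLFit and glmQLFTest) in R 4.3.3, with TMM scaling, the filterByExpr count filter and Benjamini-Hochberg adjustment over all genes tested. The main fit held no replicate block. DESeq2 1.42.0, which the authors used, and limma-voom were run as alternatives. CPM values use TMM factors over all 9 libraries, and log2 CPM a prior count of 2.

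Pairing was checked on 12108 genes: libraries of HS3A8-high and HS3A8-low with the same replicate number had correlations of 0.325 to 0.509 between their deviations from the group means, against -0.469 to 0.122 for different numbers. They were treated as pairs only in the fits with the replicate block. The main fit was unpaired, so its calls leave this pairing out. With the control the same-number correlations ran from -0.346 to 0.0318. The labels do not say what a number marks, so the p-values measure the spread between these libraries. On counts simulated for HS3A8-high against HS3A8-low over 11568 genes, the test called 36.4% of genes changed by 1 log2 unit and 77.5% of those changed by 2, with 6 false calls. The simulated libraries were drawn independently, without the correlation by replicate number seen in the data. These shares are over genes of all levels and were not computed for genes with few counts, such as Col18a1 and Sdc3.

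Named genes were all 8 members, the pathway list genes with an adjusted p under 0.05 (at most 4 per list and comparison), the other genes of the study's set, at most 3 markers per list beside a member, and for each member of at least 1 CPM the 3 genes of highest Pearson r. Col4a1, Col4a2, Nrp1, Gpc1, Gpc2, Ndst1, Adam10, Adam17, Has1, Has2, Cdh5, Col1a1, Cd3e, Cd3g, Cd4, Cd8a, Jchain, Mzb1, Cd34 and Kit were added after their values were seen. Exons, lengths and sequences came from GENCODE M21 (GRCm38), read with Python 3.11.15.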

Additional observations from a re-analysis of the deposited data

How the results depend on the processing

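Between the fractions, the count of genes called was 451, and it was 1224 with DESeq2, 1490 with limma-voom, 1367 with the replicate block, 0 to 439 when 1 library was left out, and 748 without replicate 3 of both groups. With the block and 1 replicate number left out of both groups it was 266 (without replicate 1), 639 (without replicate 2) and 3569 (without replicate 3). Of the members, 1 was called with the block (Col18a1) and 2 with the block without replicate 3 (Col18a1 lower and Cd44 higher), and 0 with every other setting tried. For HS3A8-high against the control, 2 genes were called, and the counts were 143 with DESeq2, 100 with limma-voom, 9 without a count filter, 32 with all 9 libraries in 1 fit, 0 with the block, 0 to 5 with 1 library left out and 0 without replicate 3 of both groups. For HS3A8-low against the control, 0 were called, and 93 with DESeq2 and 287 with limma-voom. The cause of these differences was not tested. The fits without replicate 3 and those that join the block with a left-out replicate were chosen after seeing the data.

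The sign of a member's log2 fold change turned in 12 settings. Between the fractions these were Sdc1 with limma-voom (-1e-04) and with the block without replicate 1 (-0.0512), and Sdc3 without HS3A8-high replicate 3 (-0.63), without replicate 3 of both groups (-0.69) and with the block without replicate 3 (-0.67). For HS3A8-low against the control they were Cd44 without a count filter (0.0023), without HS3A8-low replicate 2 (0.0624) and without control replicates 2 (0.0064) and 3 (0.04), and Sdc1 without HS3A8-low replicate 1 (0.13), without control replicate 3 (0.09) and without replicate 3 of both groups (0.0435). With 1 library left out these differences ran from -0.63 to 0.517 for Sdc3 between the fractions, and against the control from -0.2519 to 0.1319 for Sdc1 and from -0.084 to 0.0624 for Cd44. With all replicates the block changed the call of Col18a1 and of no other member, and without replicate 3 of both fractions it also changed that of Cd44 (adjusted p = 0.342 without the block and 0.00134 with it, in edgeR). With a prior count of 0.5 in place of 2, 2 of the 3 most similar genes were kept for Sdc1 and Col18a1 and 3 of 3 for the other members. Sdc4, Hspg2 and Col18a1 are limited by counts of 0 to 76 per library.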
